A study of Mus musculus with 24 samples.

Results

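The genes described here are those of liver X receptor (LXR) signalling and cholesterol efflux, chosen by name: the receptors Nr1h2 (LXRβ) and Nr1h3 (LXRα), the membrane transporters Abca1 and Abcg1, the lipoprotein receptor Scarb1, the apolipoproteins Apoe, Apoc1 and Apoc2, and the ubiquitin ligase Mylip. Of these 9 genes, 8 had at least 1 probe set with that single symbol, 13 probe sets among the 45037 tested and 8 genes among 18193. Nr1h2 was not analysed here. Gene expression was measured on Affymetrix arrays in macrophages that were differentiated from bone marrow of mice under M-CSF, their growth factor. The comparisons address whether IL-4, acting through STAT6, alters what a ligand of the nuclear receptor PPARγ does in these cells.

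Of 6 donor mice, all C57Bl/6, 3 were wild-type (WT) and 3 lacked Stat6 (knockout, KO). Each mouse gave 4 cultures kept for 10 days, all with M-CSF at 20 ng/ml: control cells with vehicle (a DMSO and ethanol mix), control cells with 1 µM rosiglitazone (RSG), cells with IL-4 at 20 ng/ml and vehicle, and cells with IL-4 and RSG. This gave 24 arrays in 8 groups of 3, with mice 1 to 3 WT and mice 4 to 6 KO. RSG is a synthetic PPARγ agonist, and the IL-4 receptor signals through the transcription factor STAT6. The labels give no age and no further allele, and the 4 cultures of a mouse share their marrow. Values are log2 ratios of each probe set to its own median over the arrays, and say nothing of whether 1 gene is more abundant than another. A change is the difference between 2 group means on this scale and is given ± SE (limma, n = 3 arrays per group). A probe set was called, and its gene said to rise or fall, at a Benjamini-Hochberg adjusted p under 0.05 over all probe sets with at least a 1.5-fold change. Overlap of arrays between groups is given for the members as a description. Its share over all probe sets was not counted, so a lack of overlap adds no support to a change that was not called.

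As background, LXRα and LXRβ are nuclear receptors that bind oxysterols and act as heterodimers with the retinoid X receptors on paired hexamers. In macrophages their targets export cholesterol: ABCA1 passes cholesterol and phospholipid to lipid-poor apolipoprotein A-I, ABCG1 passes cholesterol to mature high-density lipoprotein, and secreted APOE accepts cholesterol at the cell surface. APOC1 and APOC2 are small apolipoproteins encoded beside APOE, and APOC2 is the cofactor of lipoprotein lipase. MYLIP (IDOL) marks the low-density lipoprotein receptor for degradation, and Scarb1 encodes SR-BI, a receptor for high-density lipoprotein. PPARγ ligands are known to raise Nr1h3 and Abcg1 in macrophages.

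RefSeq upstream sequences (build GRCm38.p6) were given for 6 of the 9 genes, Nr1h2, Nr1h3, Abca1, Apoc2, Apoe and Mylip, with 9 start sites among them. The 250 bases before each start were searched on both strands for the hexamer that nuclear receptors bind (AGGTCA), for 2 relaxed hexamers spaced by 4 bases, the LXR arrangement (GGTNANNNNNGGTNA), for the same spaced by 1 base, the PPAR arrangement (GGTNANNGGTNA), and for the STAT6 palindrome (TTCNNNNGAA). A strict hexamer can lie inside a repeat. Among all 32851 promoters of the same length, 14.0% held the hexamer, 0.621% the repeat spaced by 4, 0.938% the repeat spaced by 1 and 5.85% the palindrome. The sequences below are shown because they hold the matches found. The IL-4 response of both genes differed between genotypes, as did that of Apoe and Mylip, whose windows held no match. Capitals mark the match, which in Abca1 is the 15 bases of a repeat spaced by 4 read on the opposite strand, with its first base 67 bases before the start, and in Apoc2 is the hexamer, 115 bases before the start. Both are on the minus strand, printed in the gene's direction, and the Abca1 stretch lies within the annotated span of the gene because other transcripts start upstream.
Abca1 (chr4:53159940-53159969): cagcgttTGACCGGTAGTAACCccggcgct
Apoc2 (chr7:19677942-19678191): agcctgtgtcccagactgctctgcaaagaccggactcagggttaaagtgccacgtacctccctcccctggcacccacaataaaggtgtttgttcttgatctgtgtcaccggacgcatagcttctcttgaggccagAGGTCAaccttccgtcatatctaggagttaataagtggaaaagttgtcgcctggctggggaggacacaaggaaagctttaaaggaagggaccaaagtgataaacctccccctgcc
None of the 4 motifs was found in the windows of Nr1h2, Nr1h3, Apoe and Mylip. A match is a string of letters and no measurement of binding.

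The targeted gene was checked first. Stat6, with 2 probe sets, ranged from 0.71 to 1.15 in WT and from -2.12 to -1.48 in KO cells, and no array went against its genotype label. Angptl4, a PPARγ target, rose with RSG in all 4 backgrounds on 1 of its 2 probe sets, by 1.73 to 3.20, and was called in WT with IL-4 on the other. Of the 4 other PPARγ targets checked, Cpt1a rose in WT with IL-4 on 2 of 3 probe sets, by 1.11 and 0.80, Fabp4 rose on 1 of 4 in KO with IL-4, by 0.64, and was not called in WT (0.42 to 0.84 with IL-4, lowest adjusted p = 0.055), and Pdk4 and Plin2 were not called in any of the 4 RSG comparisons. Markers of other cells stood apart in several places. The mean of 10 stromal fibroblast markers was 2.27 for mouse 2 in WT control cells with vehicle and 4.31 for mouse 6 in KO control cells with RSG, and these arrays are called stromal-high below. The vehicle control array of WT mouse 3 was at 1.16 for the mast cell and basophil markers, 0.40 for the lymphocyte and 1.03 for the dendritic cell markers, against -1.45 and -1.41, -1.39 and -1.77, and -1.03 and -0.26 for mice 1 and 2, and results that turn on it are also given without it. In KO cells with IL-4 and vehicle, the mean of 7 mast cell and basophil markers was 6.08 to 6.57, that of 8 granule markers 3.31 to 3.66 and that of 5 lymphocyte markers 4.08 to 4.55, against -1.24 to -0.27, -0.34 to 0.41 and -2.54 to -1.34 in KO control cells. With IL-4 and RSG the KO arrays were at 6.62 to 6.89, 3.35 to 3.62 and 3.64 to 4.03. The mean of the 7 macrophage markers with a probe set lay between 0.13 and 0.28 in KO cells with IL-4 and vehicle. In KO control cells it lay between 0.039 and 0.14, and in KO cells with IL-4 and RSG between -0.22 and -0.071. Of these 7 markers, 1 rose and 2 fell with IL-4 in KO cells. Ratios hold no zero, so whether a marker was absent is unknown.

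**Figure D1:**
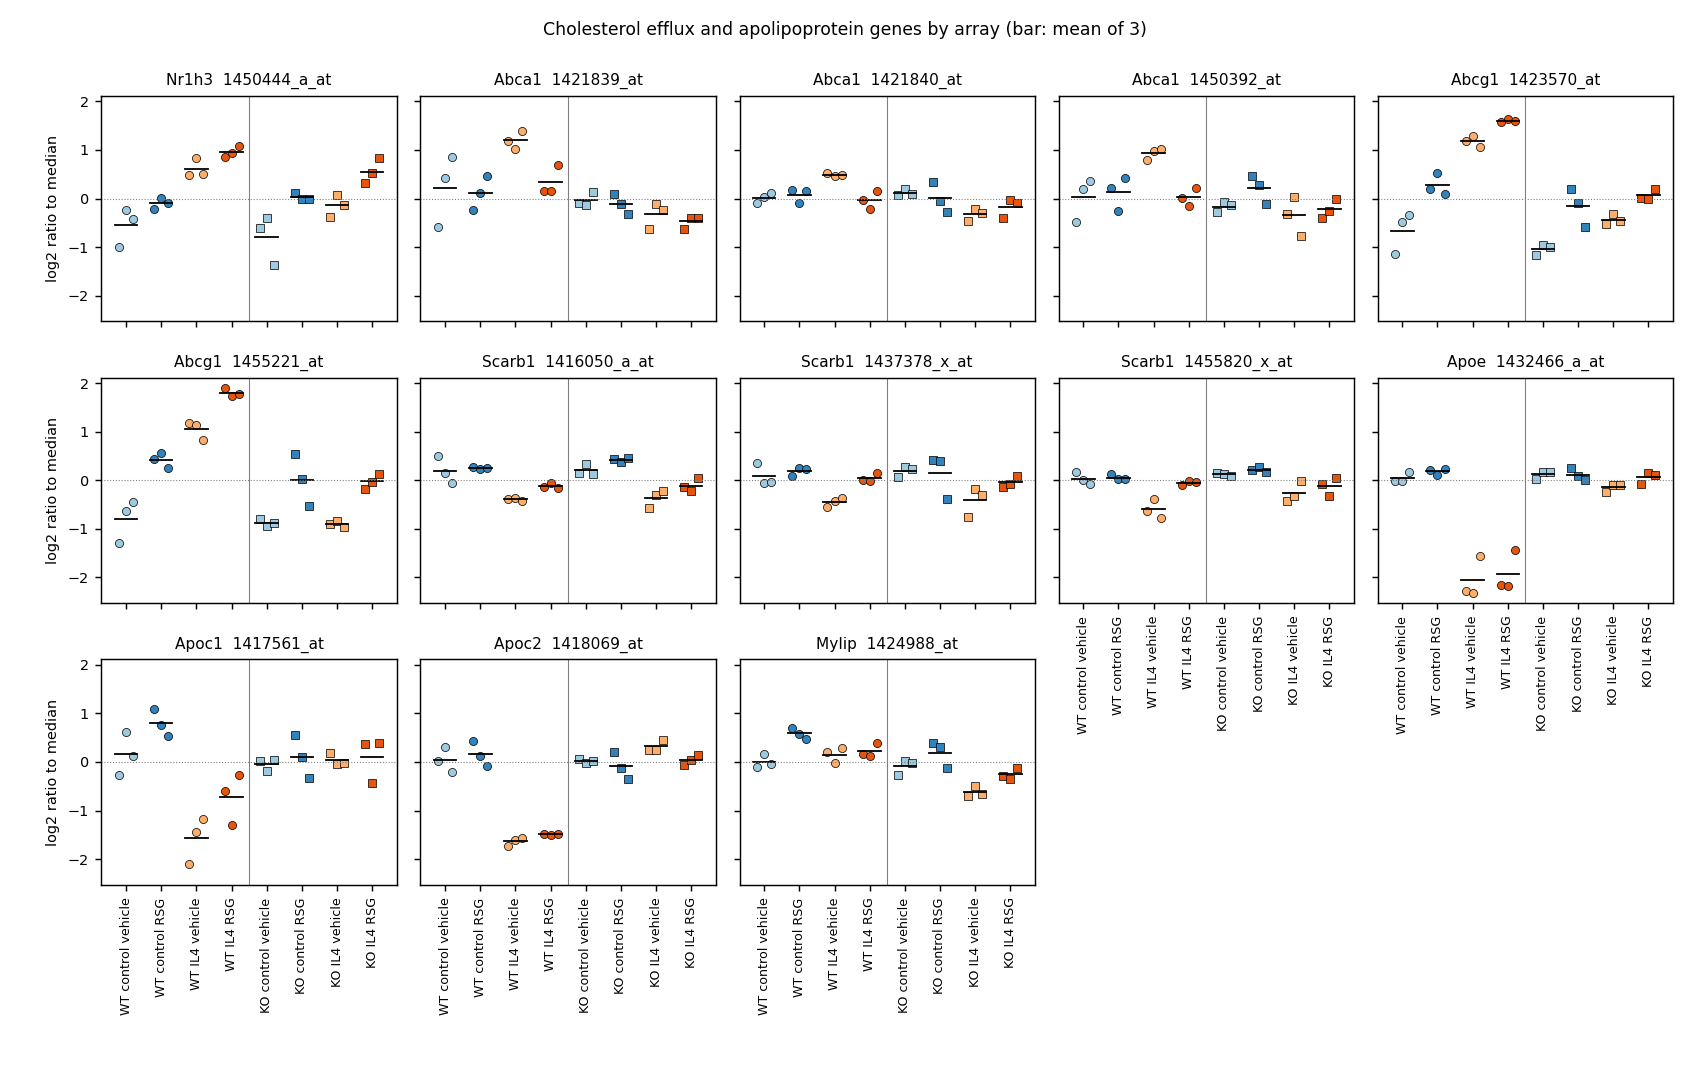
Log2 ratio (y axis) of the 13 probe sets on each array, in the 8 groups (x axis; circles WT, squares KO; blue without IL-4, orange with IL-4; darker shades with RSG); bars are means of 3 arrays. Apoe, Apoc1 and Apoc2 are lowest in both WT groups with IL-4, and Abcg1 is highest there, with group means of 1.05 and 1.80 on 1455221_at.

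In WT macrophages, IL-4 split the pathway: the receptor Nr1h3 and the efflux transporters Abcg1 and Abca1 rose, while Apoe, Apoc1, Apoc2 and Scarb1 fell. Of the 13 probe sets, 9 were called, 5 higher and 4 lower, in 7 of the 8 genes, against 13.1% of all probe sets. The median change was 0.15 over the 13 and 0.09 over all. Among the 13, 12 had an unadjusted p under 0.05, as had 12691 of all 45037 probe sets.

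Nr1h3 was -0.99, -0.24 and -0.42 on the WT control arrays of mice 1, 2 and 3 and 0.49, 0.83 and 0.51 with IL-4. Every IL-4 array lay above every control array, and the rise was 1.16 ± 0.22, or 2.23-fold (adjusted p = 0.00083).

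Abcg1 moved further. On 1455221_at it was -1.30, -0.63 and -0.45 in WT control cells and 1.19, 1.13 and 0.83 with IL-4. On 1423570_at it was -1.15, -0.49 and -0.35 without and 1.18, 1.28 and 1.06 with IL-4. The groups did not overlap on either probe set. The rises were 1.84 ± 0.22 and 1.83 ± 0.19, or 3.59-fold and 3.57-fold (adjusted p = 6.1e-06 and 1.4e-06), and the probe sets followed each other over the 24 arrays with a Pearson r of 0.969.

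Abca1, which has 3 probe sets, was called on 2 of them. On 1450392_at the WT control arrays were at -0.48, 0.19 and 0.36 and the IL-4 arrays at 0.79, 0.97 and 1.03. On 1421839_at they were at -0.59, 0.42 and 0.85 without and 1.18, 1.02 and 1.39 with IL-4. The control array of mouse 1 was the lowest on both, and no IL-4 array overlapped the controls. The rises were 0.90 ± 0.23 and 0.97 ± 0.27 (adjusted p = 0.0084 and 0.017). On 1421840_at the change of 0.47 ± 0.14 had an adjusted p of 0.027 but stayed under 1.5-fold. Without mouse 1 the rises on 1450392_at and 1421839_at were 0.72 and 0.57 (adjusted p = 0.10 and 0.14), and without mouse 2 that on 1421839_at was 1.16 (adjusted p = 0.060), and these were not called. Neither was called by the methods' t-test (adjusted p = 0.145 and 0.294) or in a fit on these 6 arrays alone (0.073 and 0.176), nor was 1421839_at after quantile normalization (0.71, adjusted p = 0.123).

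The apolipoproteins went the other way. Apoe was -0.0054, -0.023 and 0.17 in WT control cells and -2.27, -2.32 and -1.56 with IL-4. Apoc1 was -0.28, 0.61 and 0.13 without and -2.09, -1.43 and -1.18 with IL-4. Apoc2 was 0.027, 0.31 and -0.20 without and -1.73, -1.61 and -1.56 with IL-4. No IL-4 array overlapped the controls of the same gene. Apoe fell by 2.10 ± 0.27, Apoc1 by 1.72 ± 0.32 and Apoc2 by 1.68 ± 0.20 (adjusted p = 1.3e-05, 0.00062 and 7.5e-06), which left 0.23, 0.30 and 0.31 of the control ratio. Fitted on these 6 arrays alone, the same changes had adjusted p of 0.053, 0.081 and 0.056 and were not called, and by the methods' t-test those of Apoc1 (0.082) and Nr1h3 (0.083) were not. With both Abca1 probe sets and Scarb1, the methods' t-test lost 5 of the 9 calls. In the same arrays 4 of 7 macrophage markers fell and 1 rose, with a list mean of 0.24 to 0.37 in control and -0.64 to -0.45 in IL-4 cells. Of 8 granule markers 6 fell, from -0.59 to 0.68 down to -4.55 to -3.75, and of 10 stromal markers 4 fell, from -0.46 to 2.27 down to -0.92 to -0.72. Their part in the result was not tested, and in bulk RNA fewer cells of a type and less RNA per cell cannot be told apart.

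Scarb1 fell on 1455820_x_at by 0.63 ± 0.13 (adjusted p = 0.0019), from 0.17, 0.015 and -0.077 to -0.62, -0.38 and -0.77. The other two probe sets changed by -0.58 ± 0.12 and -0.54 ± 0.19 (adjusted p = 0.0025 and 0.053), under 1.5-fold, with arrays that did not overlap. The call on 1455820_x_at was lost without mouse 1 (-0.54, adjusted p = 0.050), by the methods' t-test (0.080), on these 6 arrays alone (0.172) and after quantile normalization (-0.51, under 1.5-fold). On 1416050_a_at the fall was called without mouse 2 (-0.61), without mouse 3 (-0.69), without the vehicle control array of mouse 3 (-0.71) and without the stromal-high arrays (-0.60), and without the latter 1437378_x_at was called too (-0.62). Probe sets named _x_at can bind transcripts of other genes, so their values are less certain. Mylip was -0.11, 0.16 and -0.045 in control and 0.20, -0.026 and 0.28 in IL-4 cells, which overlapped, and its change was 0.15 ± 0.14 (adjusted p = 0.56).

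Without STAT6 the changes of Apoe, Apoc1, Apoc2 and Abca1 were not called. Those of Nr1h3 and the 3 Scarb1 probe sets went the same way as in WT, at 0.65 and at -0.59 to -0.37. In KO macrophages IL-4 called 2 of the 13 probe sets, 1 higher and 1 lower, against 11.7% of all probe sets. The medians were -0.28 over the 13 and -0.14 over all. An unadjusted p under 0.05 was found for 7 of the 13 and 12203 of all 45037.

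Apoe was 0.034, 0.17 and 0.18 in the KO control cells of mice 4, 5 and 6 and -0.25, -0.093 and -0.10 with IL-4. Apoc1 was 0.025, -0.19 and 0.036 without and 0.19, -0.046 and -0.026 with IL-4. Apoc2 was 0.065, -0.022 and 0.022 without and 0.25, 0.26 and 0.45 with IL-4. None of these arrays came near the WT IL-4 values. The changes were -0.28 ± 0.27 (95% interval -0.84 to 0.28), 0.09 ± 0.32 (-0.58 to 0.75) and 0.30 ± 0.20 (-0.13 to 0.72).

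For Abcg1 the probe sets disagreed in KO cells. On 1423570_at it rose by 0.60 ± 0.19 (adjusted p = 0.038), from -1.17, -0.95 and -1.01 to -0.53, -0.32 and -0.47. On 1455221_at the arrays were at -0.80, -0.95 and -0.87 without and -0.91, -0.84 and -0.96 with IL-4, a change of -0.025 ± 0.22. The call on 1423570_at was lost when mouse 2, 3, 4, 5 or 6 was left out, with adjusted p of 0.068, 0.052, 0.13, 0.20 and 0.084 at changes of 0.58 to 0.64. Mice 2 and 3 are WT and not in this comparison. Without them the change stayed at 0.60, and only the spread estimated over all groups and the adjustment moved.

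Nr1h3 was -0.61, -0.40 and -1.37 in KO control cells and -0.37, 0.071 and -0.13 with IL-4. The groups did not overlap, and the change of 0.65 ± 0.22 had an adjusted p of 0.051. The Abca1 probe sets changed by -0.28 ± 0.27, -0.45 ± 0.14 and -0.18 ± 0.23, none called. The change of -0.45, on 1421840_at, had an adjusted p of 0.038 but stayed under 1.5-fold, and its direction was opposite to that in WT. Mylip changed by -0.53 ± 0.14 (adjusted p = 0.014), under 1.5-fold, from -0.27, 0.013 and -0.013 to -0.70, -0.49 and -0.67. Scarb1 fell on 1437378_x_at by 0.59 ± 0.19 (adjusted p = 0.036), and without mouse 1, 2, 3, 4 or 5 this was not called, at changes of -0.67 to -0.49 with adjusted p of 0.056 to 0.17. Mice 1 to 3 are WT and not in this comparison, and leaving them out did not alter the change itself. With the mouse as a block in a paired fit that change kept its size (-0.59) at an adjusted p of 0.058. The other Scarb1 probe sets, 1416050_a_at and 1455820_x_at, changed by -0.57 ± 0.12 and -0.37 ± 0.13 (adjusted p = 0.0033 and 0.060), both under 1.5-fold. Without mouse 6 the change on 1416050_a_at was called (-0.68). Scaling mattered here: 37.0% of all calls were higher as deposited, 47.5% after quantile normalization and 54.3% after centring, which moved the median of all probe sets from -0.14 to -0.0013. Under both scalings Nr1h3 was called (0.84 and 0.79) and Scarb1 1437378_x_at was not (-0.51 and -0.45), which left 2 higher and 0 lower.

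**Figure D2:**
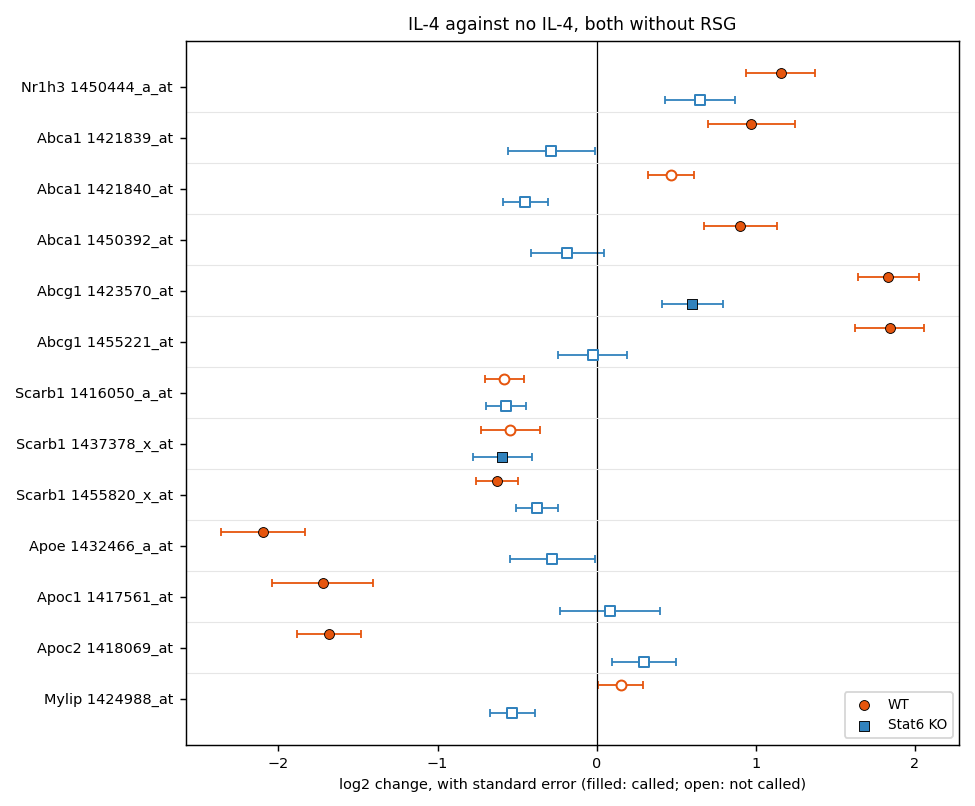
Change with IL-4 (x axis, log2, with SE; 3 arrays per group) of each probe set in WT (circles) and Stat6 KO (squares) macrophages, filled where called. Apoe, Apoc1 and Apoc2 lie between -2.10 and -1.68 in WT and between -0.28 and 0.30 in KO, while the 3 Scarb1 probe sets lie between -0.63 and -0.37 in both.

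The difference between genotypes was tested itself, as WT response minus KO response. It was called for 9 of the 13 probe sets, 6 higher and 3 lower in WT, against 14.9% of all probe sets. The Apoe response differed by -1.82 ± 0.38, that of Apoc1 by -1.81 ± 0.45 and that of Apoc2 by -1.98 ± 0.29 (adjusted p = 0.0022, 0.0084 and 9.0e-05). The Abcg1 responses differed by 1.87 ± 0.31 on 1455221_at and 1.23 ± 0.27 on 1423570_at (adjusted p = 0.00032 and 0.0036). The Abca1 responses differed by 1.26 ± 0.38, 0.92 ± 0.20 and 1.09 ± 0.32 (adjusted p = 0.031, 0.0036 and 0.026), and that of Mylip by 0.68 ± 0.20 (adjusted p = 0.024). Neither the difference of Nr1h3, 0.51 ± 0.31 (95% interval -0.14 to 1.16, adjusted p = 0.32), nor those of Scarb1, between -0.25 and 0.05, passed the test.

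The median difference over all probe sets was 0.24, and centring each array on its median brought it to 0.07, with 3 higher and 3 lower member calls. Of all calls, 67.9% were higher in the deposited scaling, 52.5% after centring and 49.2% after quantile normalization, which also left 3 higher and 3 lower. The calls of Apoe, Apoc1, Apoc2, both Abcg1 probe sets and Abca1 1421840_at were present under both scalings. Those of Abca1 1421839_at (1.09 and 0.85), Abca1 1450392_at (0.92 and 0.71) and Mylip (0.51 and 0.45) were lost under centring and quantile normalization. These 3 also depended on single mice. Abca1 1421839_at was lost without mouse 1, 2, 4, 5 or 6 (0.86, 1.44, 1.13, 1.42 and 1.22), Abca1 1450392_at without mouse 1, 2, 4 or 6 (0.90, 1.15, 1.17 and 0.87), and Mylip without mouse 1, 3, 5 or 6 (0.60, 0.59, 0.69 and 0.62) or without the vehicle control array of mouse 3 (0.66). Fitted on the arrays compared alone, the 3 were not called either, with adjusted p of 0.094, 0.063 and 0.084.

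The genotypes were also set side by side, without and with IL-4. Without IL-4, limma called 0 of the 13 probe sets between KO and WT, and the methods' t-test called 0. An unadjusted p under 0.05 was found for 0 of the 13 and 4358 of all 45037. Of all probe sets, limma called 0.173%. At that background a count of 0 says nothing about the members, and the intervals allow differences, as for Abcg1 1423570_at (-0.38, 95% interval -0.78 to 0.02). With IL-4, 10 were called, 3 higher and 7 lower in KO, against 24.4% of all. The IL-4 comparisons within WT, between genotypes and of their difference share arrays, so their values are not independent of each other.

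With IL-4, Apoe, Apoc1 and Apoc2 were higher in KO than in WT by 1.90 ± 0.27, 1.61 ± 0.32 and 1.95 ± 0.20, or 3.73-fold, 3.05-fold and 3.87-fold. Abcg1 was lower by 1.95 ± 0.22 on 1455221_at and 1.61 ± 0.19 on 1423570_at. The Abca1 differences were -1.52 ± 0.27, -0.81 ± 0.14 and -1.28 ± 0.23, that of Mylip was -0.78 ± 0.14 and that of Nr1h3 -0.75 ± 0.22. All had adjusted p of 0.013 or less, and in all the groups did not overlap. The Scarb1 probe sets differed by 0.02 ± 0.12, 0.04 ± 0.19 and 0.34 ± 0.13, none called.

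Over all probe sets the median difference was -0.25 and 28.7% of the calls were higher, against 46.8% after centring and 43.8% after quantile normalization. The Mylip call was lost under both (-0.56 and -0.53, under 1.5-fold), the Nr1h3 call too (-0.53 and -0.44), and Abca1 1421840_at under quantile normalization (-0.49). Nr1h3 was also not called without mouse 2 (-0.64, adjusted p = 0.083) or mouse 4 (-0.63, adjusted p = 0.080). In this comparison 6 of 7 mast cell and basophil, 8 of 8 granule and 4 of 5 lymphocyte markers were higher in KO, as given above, and 3 of 7 macrophage markers were higher and 2 lower. Their part in the result was not tested.

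Fewer member probe sets were called with RSG than with IL-4 in WT, as were fewer of all probe sets (0.140% to 0.673%, against 13.1%). The counts thus do not show that these genes responded less than other genes did. Abcg1 was the only member called in any of the 4 RSG comparisons, in WT control cells. In WT control cells 1 of 13 probe sets was called, against 0.140% of all. Abcg1 1455221_at rose by 1.21 ± 0.22 (adjusted p = 0.027), from -1.30, -0.63 and -0.45 to 0.45, 0.57 and 0.25. On 1423570_at it went from -1.15, -0.49 and -0.35 to 0.20, 0.53 and 0.083, a change of 0.93 ± 0.19 (adjusted p = 0.062). Neither probe set had overlapping groups. Without mouse 1, 2, 3 or 5 the first was not called (0.95, 1.22, 1.47 and 1.21, with adjusted p of 0.43, 0.33, 0.062 and 0.10), nor with the mouse as a block in a paired fit (1.21, adjusted p = 0.056). Mouse 5 is KO and not in this comparison, and leaving it out did not alter the change itself. The second was called without the stromal-high arrays (1.02) and without the vehicle control array of mouse 3 (1.09). Of all calls 39.7% were higher, against 28.1% after quantile normalization, where both Abcg1 probe sets and Mylip were called. Mylip was -0.11, 0.16 and -0.045 without and 0.71, 0.58 and 0.47 with RSG, and its change of 0.59 ± 0.14 was not called (adjusted p = 0.124). Nr1h3 changed by 0.45 ± 0.22 (adjusted p = 0.65), from -0.99, -0.24 and -0.42 to -0.22, 0.0032 and -0.094, also without a call.

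With IL-4 in WT, limma called 0 of the 13, against 0.673% of all, and the methods' t-test called 0. The unadjusted p was under 0.05 for 9 of the 13 and for 4098 of all 45037. Abca1 had lower means with RSG there, without a call. On 1450392_at it went from 0.79, 0.97 and 1.03 with IL-4 alone to 0.015, -0.15 and 0.22 with IL-4 and RSG. The changes on the 3 probe sets were -0.90 ± 0.23, -0.86 ± 0.27 and -0.52 ± 0.14 (adjusted p = 0.085, 0.22 and 0.13). The Abcg1 probe sets were higher, at 0.75 ± 0.22 and 0.42 ± 0.19, and the 3 Scarb1 probe sets too, at 0.27 ± 0.12, 0.50 ± 0.19 and 0.54 ± 0.13 (lowest adjusted p = 0.066). For Apoe the change was 0.12 ± 0.27 (95% interval -0.43 to 0.68) and for Apoc2 0.15 ± 0.20 (-0.27 to 0.58), so the low values of IL-4 cells were not lifted by more than these intervals allow. Apoc1 changed by 0.85 ± 0.32 (adjusted p = 0.35), from -2.09, -1.43 and -1.18 to -0.60, -1.29 and -0.27, with overlapping arrays.

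In KO cells limma and the methods' t-test each called 0 of the 13 with RSG, without IL-4 (0.180% of all) and with it (0.553%). The unadjusted p was under 0.05 for 3 members and 3705 of all 45037 without IL-4. With IL-4 the counts were 4 and 3942. Abcg1 1455221_at went from -0.80, -0.95 and -0.87 to 0.54, 0.035 and -0.54 without IL-4, where the lowest value is the stromal-high array of mouse 6. With IL-4 it went from -0.91, -0.84 and -0.96 to -0.17, -0.036 and 0.14. The changes were 0.89 ± 0.22 and 0.88 ± 0.22 (adjusted p = 0.14 and 0.094). Without the stromal-high arrays they were 1.16 and 0.88 with adjusted p of 0.029 and 0.034 and were called, as was 1423570_at without IL-4 (adjusted p = 0.024). Neither stromal-high array is in the comparison with IL-4. There the change stayed at 0.88, and only the spread estimated over all groups and the adjustment moved. Nr1h3 changed by 0.83 ± 0.22 and 0.69 ± 0.22 in KO cells (adjusted p = 0.19 and 0.25), again without a call. After quantile normalization Nr1h3 (0.95, adjusted p = 0.043) and both Abcg1 probe sets (0.98 and 1.02, adjusted p = 0.028 and 0.043) were called in KO control cells, and after centring Abcg1 1423570_at was (0.94, adjusted p = 0.048).

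**Figure D3:**
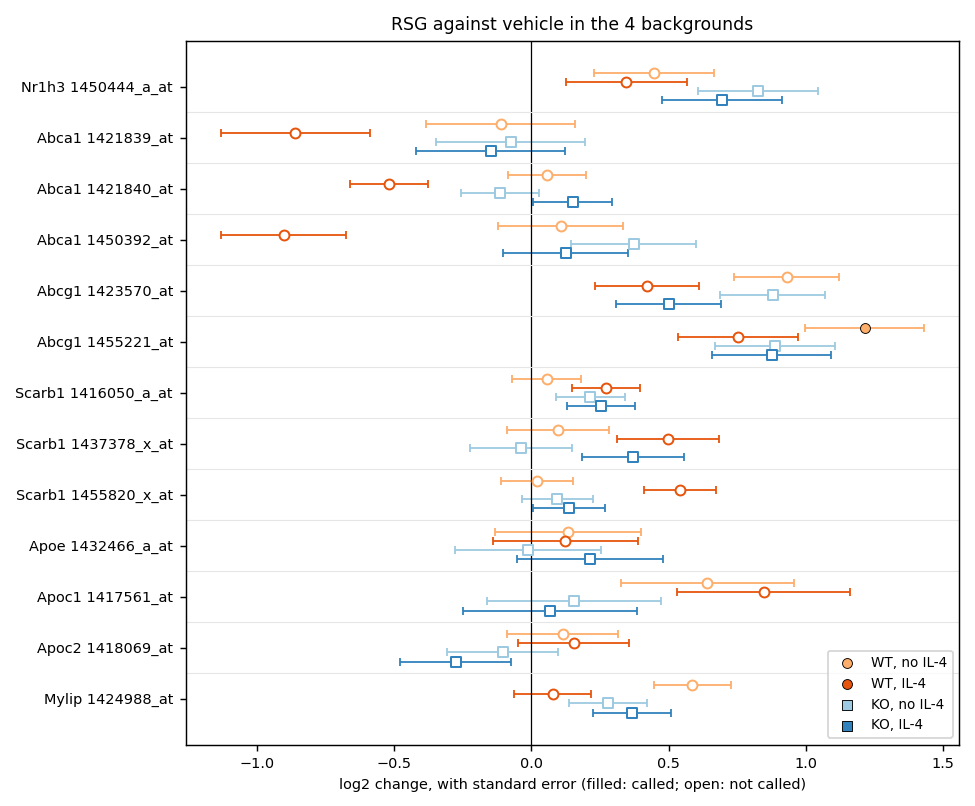
Change with RSG (x axis, log2, with SE; 3 arrays per group) of each probe set in WT (orange circles) and KO (blue squares) cells without (pale) and with (dark) IL-4, filled where called. Abcg1 and Nr1h3 lie above 0 in all 4 backgrounds, and the Abca1 probe sets lie between -0.90 and -0.52 in WT cells with IL-4 and between -0.15 and 0.37 elsewhere.

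Whether IL-4 or the genotype altered the RSG response was tested as a difference of differences. For IL-4 in WT, limma called 0 of the 13 (0.0111% of all). At an unadjusted p under 0.05 were 4 of the 13 and 2806 of all 45037. The difference was -1.01 ± 0.32 for Abca1 1450392_at (adjusted p = 0.54) and -0.46 ± 0.31 for Abcg1 1455221_at (95% interval -1.11 to 0.19). For the genotype with IL-4 limma called 0 (0.353% of all). At an unadjusted p under 0.05 were 3 of the 13 and 3571 of all 45037. There Abca1 1450392_at differed by -1.03 ± 0.32 (adjusted p = 0.30) and Abcg1 1455221_at by -0.12 ± 0.31 (95% interval -0.77 to 0.52). The methods' t-test has no form for these differences.

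The mean of the 4 RSG responses was added as a comparison after the data were seen, because Abcg1 and Nr1h3 were higher with RSG in every background. For these genes it restates what prompted it, and its values are a description. It passed 2 of the 13, both Abcg1, and 0.777% of all probe sets. The mean response of Abcg1 was 0.93 ± 0.11 on 1455221_at and 0.68 ± 0.10 on 1423570_at, and that of Nr1h3 was 0.58 ± 0.11, just under 1.5-fold. That of Nr1h3 reached 1.5-fold and passed without mouse 2, 4 or 5 (0.64, 0.59 and 0.66) and without the stromal-high arrays (0.62). So it did without the vehicle control array of WT mouse 3 (0.59) and after centring (0.60). That of Mylip was 0.33 ± 0.07. Apoe changed by 0.11 ± 0.13 and Apoc2 by -0.03 ± 0.10, with 95% intervals of -0.16 to 0.39 and -0.24 to 0.18.

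The order of the groups differed from gene to gene. For Abcg1 1455221_at the means fell from WT with IL-4 and RSG (1.80) through WT with IL-4 (1.05) to WT control with RSG (0.42), KO control with RSG (0.013) and KO with IL-4 and RSG (-0.025), and on to WT control (-0.79), KO control (-0.87) and KO with IL-4 (-0.90). The first 3 did not overlap each other. WT control with RSG overlapped KO control with RSG, the KO groups with RSG overlapped each other, and the last 3 overlapped. KO control with RSG also reached into the range of WT control, through its stromal-high array at -0.54, and KO with IL-4 and RSG did not. For Apoe both WT groups with IL-4 lay at -2.05 and -1.92, overlapping each other, and the other 6 groups lay between -0.15 and 0.18. For Apoc2 the same groups lay at -1.64 and -1.48, without overlap, and the others between -0.08 and 0.32. Abca1 1450392_at was highest in WT with IL-4 alone (0.93), above all arrays of the other 7 groups, whose means lay between -0.35 and 0.21. Mylip was highest in WT control with RSG (0.59) and lowest in KO with IL-4 (-0.62).

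Across the 24 arrays, genes were ranked by Pearson r with each member, as a description in which the arrays share the 8 conditions. The closest to Abcg1 1423570_at were Pltp, the phospholipid transfer protein (r = 0.972), Cd36, the scavenger receptor for oxidized lipid (0.968), and the eosinophil-type ribonuclease Ear3 (0.955). For Nr1h3 they were Fam83f (0.940), Camk2d (0.904) and again Pltp (0.883). For Apoe the closest were the phosphatase Ptpn18 (0.988), Prxl2b (0.987) and Sh3bp5 (0.984), and for Abca1 1450392_at the lectin receptor Clec4a2 (0.824), the transcriptional repressor Prdm1 (0.795) and Rasa1 (0.792). Apoc2 was closest to Lst1 (0.980), Apoc1 to Abi3 (0.904), Mylip to Ly9 (0.931) and Scarb1 1455820_x_at to the aldolase Aldoc (0.879). Nr1h3 followed Abcg1 (0.866 and 0.811 on its probe sets) and hardly Abca1 (0.136 to 0.360). Apoe followed Apoc2 (0.940) and Apoc1 (0.830).

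Apoe, Apoc1 and Apoc2 lie in a row on chromosome 7, with Apoc4 between Apoc2 and Apoc1. Apoc4 changed with IL-4 in WT by -2.09 ± 0.84 (adjusted p = 0.10) and in KO by -0.98 ± 0.84, neither called. On the Apoc2 side, Relb, a subunit of NF-κB, fell in WT by 1.44 ± 0.19, and Clptm1 fell on 1 of 2 probe sets, by 0.69 ± 0.21. On the Apoe side, Tomm40, a pore of the mitochondrial outer membrane, rose by 0.71 ± 0.15, the adhesion molecule Nectin2 fell by 0.90 ± 0.22 and 0.65 ± 0.19, and Bcam rose by 0.99 ± 0.30. The measured neighbours thus moved in both directions in WT, and none of them was called in KO. There Clptm1 changed by -0.54 ± 0.14 on its other probe set (adjusted p = 0.0096), under 1.5-fold, and Nectin2 by -0.52 ± 0.22 and -0.55 ± 0.19. The difference between the genotypes' IL-4 responses was called for Relb (-1.33 ± 0.27) and Tomm40 (0.82 ± 0.21). It was not called for Clptm1, Nectin2, Bcam or Apoc4.

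Other genes of the pathway were described from lists and not tested as sets. Where several probe sets of a gene were called, the value is that with the largest change unless more are given. A gene counted as called when any of its probe sets was called and none the other way, which held for 20.1% of all genes in the IL-4 response of WT, with a median change of 0.10. Of 12 LXR partners and coregulators 3 fell and 0 rose (median -0.09): the coactivator Ncoa3 (-0.95 ± 0.11), the heterodimer partner Rxra (-0.81 ± 0.19) and the corepressor Nrip1 (-0.64 ± 0.14). With 1 probe set a gene, 1 of the 12 was called. Of 14 other LXR targets 4 rose and 2 fell (median 0.13). The desaturases Scd2 and Scd1 rose by 2.71 ± 0.41 and 1.73 ± 0.47, and Pltp by 1.32 ± 0.13. Cd5l, a macrophage survival factor, fell by 1.90 ± 0.27.

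Of 17 genes of cholesterol uptake, storage and transport, 2 rose and 2 fell with IL-4 in WT (median 0.27). Ch25h, which makes the LXR ligand 25-hydroxycholesterol, rose by 3.75 ± 0.49. Cd36 rose on 3 probe sets, by 2.45 ± 0.19, 1.19 ± 0.12 and 1.09 ± 0.11. The sterol carrier Stard4 fell by 1.61 ± 0.21, and Cyp27a1, which makes 27-hydroxycholesterol, by 0.92 ± 0.16. Of 13 other apolipoprotein genes Apob rose by 1.89 ± 0.64 and Apoc3 fell by 3.11 ± 0.69 (median -0.02). With 1 probe set a gene, 1 of the 13 was called.

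In KO cells with IL-4, 18.9% of all genes were called (median -0.15). Of the partners 2 fell (median -0.25), Rxra by 1.32 ± 0.19 and Rxrb by 0.63 ± 0.18. Of the other targets 1 fell (median 0.02), the efferocytosis receptor Mertk, by 0.95 ± 0.14. Of the cholesterol genes 5 fell and 1 rose (median -0.41), with the scavenger receptor Msr1 higher by 1.54 ± 0.26 and Cyp27a1, Stard4 and the lysosomal cholesterol exporter Npc1 lower by 1.21 ± 0.16, 0.98 ± 0.21 and 0.91 ± 0.14. Of the other apolipoproteins 0 were called (median -0.04).

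The difference between the genotypes' IL-4 responses was called for 22.9% of all genes (median 0.26). It was higher in WT for 6 of 14 other targets and lower for 1 (median 0.50), among them Scd2 (2.16 ± 0.46), Scd1 (2.06 ± 0.67) and Pltp (1.39 ± 0.19), with Cd5l at -1.71 ± 0.38. It was higher for 6 of 17 cholesterol genes and lower for 1 (median 0.48), with Ch25h at 4.33 ± 0.69, Cd36 at 2.08 ± 0.26 on the first of its probe sets (1.08 and 0.84 on the others), Nceh1, the cholesteryl ester hydrolase, at 1.22 ± 0.17 and Msr1 at -1.56 ± 0.37. Of the partners 1 was higher, Ncoa2 (0.62 ± 0.21), and with 1 probe set a gene 0. Of the other apolipoproteins 1 was lower, Apoc3 (-3.35 ± 0.98).

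Between KO and WT cells with IL-4, 34.0% of all genes were called (median -0.27). In KO, 6 of the other targets were lower and 2 higher, 6 of the cholesterol genes lower and 1 higher, 4 of the partners lower, and 2 of the other apolipoproteins higher, at medians of -0.58, -0.68, -0.26 and 0.27. With 1 probe set a gene, 2 partners were called. Besides the genes above, Apoa1, the main protein of high-density lipoprotein, was higher by 3.17 ± 1.02 and the corepressor subunit Tbl1x lower by 0.96 ± 0.30.

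With RSG in WT IL-4 cells, 1.17% of all genes were called. From these lists Lpcat3, an LXR target that remodels phospholipids, rose by 1.02 ± 0.15, Cav1, the coat protein of caveolae, by 1.47 ± 0.33 and Apoc3 by 3.23 ± 0.69, and Ch25h fell by 2.82 ± 0.49. In KO IL-4 cells (0.989%) Cav1 rose by 2.17 ± 0.33, Pltp by 0.78 ± 0.15 and Lpcat3 by 0.74 ± 0.15, and Msr1 fell by 0.85 ± 0.15. In the mean over the 4 backgrounds (1.32%), 2 of 14 other targets rose, Lpcat3 by 0.68 ± 0.07 and Pltp by 0.62 ± 0.08, and 1 of 14 with 1 probe set a gene. Of 17 cholesterol genes, Cav1 rose by 2.11 ± 0.17 and Cd36 by 0.63 ± 0.09, and Ch25h fell by 1.31 ± 0.24. In KO control cells Cav1 rose with RSG by 3.26 ± 0.33, where the stromal markers had list means of -0.33 to 0.17 without and 0.81 to 4.31 with RSG, and their part in that result was not tested.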

How the data were processed

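The values used are linear ratios, deposited by the authors in 1 table with a column for each of the 24 arrays. Per the study's methods, scans were processed with GC-RMA in GeneSpring, each array was scaled to its median and each probe set to its own median in the experiment. A last division by the vehicle control, also described there, is not carried by these values. Such ratios hold no absolute level, so signal over background is unknown, and precision is limited by how many arrays there are.

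Values were taken to log2. After 64 control probe sets were left out, 45037 were fitted with limma 3.58.1 in R 4.3.3 (lmFit, eBayes with a variance trend), all 24 arrays in 8 groups with 16 residual degrees of freedom, two-sided, with Benjamini-Hochberg adjustment over all probe sets. There were 11 planned comparisons and 1 added. The script was run on simulated data, with a limit set on the mean error of the change and none on right or false calls. The trend multiplied the SE of Apoe by 1.37, that of Apoc2 by 1.32 and those of the other members by 0.957 to 1.02.

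Probe sets were named from the platform annotation: 34945 had 1 symbol, 932 several and 9160 none listed. The members and gene lists were chosen with earlier results of these data known. Named genes were all members, and up to 4 called genes of each list with the largest change. Neighbours were taken from RefSeq's gene order. Groups came from the labels, and 0 sample columns were unused. Arrays that share a number come from 1 mouse and are paired by it. Same-mouse deviations correlated at a mean r of 0.011 (-0.023 to 0.046 over 36 pairs, 0 above 0.1).

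Alternatives were a block for the mouse, a fit without the trend, the methods' t-test on the same values, a fit limited to the arrays compared, centring, quantile normalization, probe sets with a median of 1 within 0.001, and leaving out each mouse or the arrays named in the text.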

Additional observations from a re-analysis of the deposited data

Results flagged for a closer look

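The IL-4 response differed between WT and KO by the test of the difference itself for 9 probe sets of 6 genes. The WT response minus the KO response was 1.26, 0.92 and 1.09 for the Abca1 probe sets, 1.23 and 1.87 for those of Abcg1, 0.68 for Mylip, -1.82 for Apoe, -1.81 for Apoc1 and -1.98 for Apoc2. Markers of mast cells and basophils, granules and lymphocytes were high in the KO arrays with IL-4, and their part in these differences was not tested.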

How the results depend on the processing

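Over 2275 values of member probe sets under the alternatives, 0 called values reversed, 71 calls were lost and 27 gained. Counts of called members moved as follows, and the cause was not tested. The IL-4 response in WT had 4 calls instead of 9 by the methods' t-test and 3 in the fit on its 6 arrays alone, namely Nr1h3 and both Abcg1 probe sets; leaving out mice or arrays gave 6 to 11. The IL-4 response in KO had 1 instead of 2 with the replicate block and by the t-test, 0 on its arrays alone, and 0 to 2 with mice or arrays left out. RSG in WT control cells had 0 instead of 1 with the block, by the t-test and on its arrays alone, 3 after quantile normalization, and 0 to 2 with mice or arrays left out. RSG in KO control cells had 3 instead of 0 after quantile normalization, 1 after centring and 2 without the stromal-high arrays, and RSG in KO cells with IL-4 had 1 without them. Those arrays are not in the comparison with IL-4. Leaving out arrays also alters the spread estimated over all groups, so calls can move in comparisons that do not use them. The difference in the IL-4 response gave 6 to 9 and KO against WT with IL-4 gave 9 to 10 with mice or arrays left out. As a paired fit, the block ended those 2 calls only, with 9 for the IL-4 response in WT as in the fit without it. With 1 probe set a gene, 9 of 72 list counts moved by over 1.5 times. With 3 mice a group, a change under 1.5-fold or an adjusted p above the threshold does not show that a gene kept its level.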
